A study of Homo sapiens with 12 samples.

Results

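The HOX cluster genes and the antisense RNAs transcribed from the same clusters were 45 of the 14438 rows of the count table. The rule that selects them uses the symbol alone and takes every row whose name begins with HOXA, HOXB, HOXC or HOXD. The 45 members were 36 coding genes and 9 antisense RNAs. Of them, 15 lie in the HOXA cluster on chromosome 7, 10 in HOXB on chromosome 17, 11 in HOXC on chromosome 12 and 9 in HOXD on chromosome 2. GENCODE names 39 coding HOX genes, and HOXB1, HOXC12 and HOXD12 had no row in the table used here.

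HOX genes encode homeodomain transcription factors that give cells their position along the head to tail axis. Within a cluster they are numbered by paralog group, and genes with low numbers are used towards the head and genes with high numbers towards the tail and in limbs, the urogenital tract and the metanephric kidney. The clusters are classical targets of the Polycomb repressive complex PRC2, whose catalytic subunit EZH2 places methyl groups on lysine 27 of histone H3, while Trithorax-type complexes built on KMT2A or KMT2B keep HOX genes active. HEK293T, from human embryonic kidney, keeps many HOX genes transcribed.

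RNA was sequenced from 4 HEK293T lines infected with lentivirus for EZH2 WT, the gain-of-function (GOF) mutants EZH2 Y641F or EZH2 A677G, or the loss-of-function (LOF) double mutant EZH2 H689A/F667I, with 3 replicates per line. All lines, the WT control included, carried an introduced EZH2 beside the endogenous gene and had been selected with blasticidin. The study describes each selected line as a monoclonal population, so a mutation and the line that carries it cannot be told apart. In the main fit, p-values measure the spread between replicates within lines, estimated from all 4 lines together. The libraries of a line therefore also bear on the p-values of comparisons that leave that line out. Each mutant line was compared with EZH2 WT, Y641F with A677G, and the mean of the 2 GOF lines with the LOF line. These comparisons share libraries.

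Libraries held between 32137700 and 44562413 counts. HOX members took between 0.0664% and 0.0739% of them. Levels are given as CPM, counts scaled to one common library total. EZH2 itself, whose count joins endogenous and introduced transcripts, was at 158 ± 4.32 CPM (SD, n = 3) in EZH2 WT, 218 ± 9.61 in Y641F, 173 ± 8.57 in A677G and 208 ± 2.03 in the LOF line. Replicates of Y641F stood further apart from each other than those of the other lines, with a chi-square per degree of freedom of 10.35 to 14.88 between pairs against 3.33 to 7.13 elsewhere. Of the 6 HEK293T markers, 5 were tested, and their summed level ran from 434 to 638 CPM, with NEFL and NEFM called lower in every mutant line than in EZH2 WT and VIM in Y641F. KRT8 and KRT18 were not called against WT, with 0.17 and 0.14 on the log2 scale in the LOF line. In the GOF mean against LOF, KRT18 was called lower by -0.17 (edgeR adjusted p = 0.0348), as were NEFL and NEFM. NEFM was also called higher in Y641F than in A677G, by 0.47 (edgeR adjusted p = 4.75e-05). The leukocyte markers PTPRC, MS4A1, CD79A and CD3E and the endothelial markers PECAM1, CDH5 and VWF had no row, and 3 of 5 fibroblast markers summed to 8.99 to 15.4 CPM. Of these, LUM was called higher in Y641F than in WT by 0.90 (SE 0.256, edgeR adjusted p = 0.0218), at 2.47 against 1.33 CPM. The part of these differences in the HOX results was not tested. In bulk RNA, fewer cells with a transcript and less of it per cell cannot be told apart.

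Genes of the high paralog groups held most of the HOX transcripts. To compare genes, CPM were divided by the length of the canonical GENCODE transcript, which gives CPM per kb. The transcripts and shared exons given here come from a later Gencode release than the one the study names for its transcript estimates, and may differ from the models behind the counts. The 14 coding members of paralog groups 9 to 13 had a median of 9.80 CPM per kb and held 73.8% of the CPM of all coding HOX genes. The 15 members of groups 4 to 8 had a median of 2.14 CPM per kb, and the 7 members of groups 1 to 3 had 2.36. HOXD13, which patterns digits and the genital tubercle, stood first at 44.8 CPM per kb. It was followed by HOXB9, a thoracic patterning gene, at 33.6 CPM per kb and by HOXA5, known for its role in lung and airway formation, at 31.8. HOXD1 stood last at 0.318 CPM per kb. The 9 antisense RNAs lay between 0.813 and 9.46 CPM per kb. With the bases of all annotated exons as length, the medians were 8 for groups 9 to 13, 2.14 for groups 4 to 8 and 1.07 for groups 1 to 3, so the order of the last of these against groups 4 to 8 depends on the length used.

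**Figure D1:**
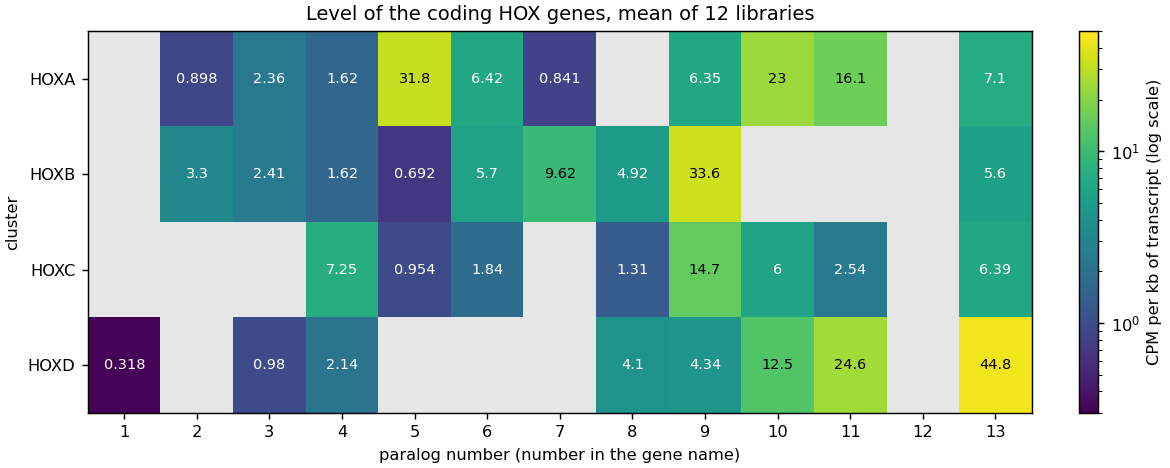
Mean level of 35 coding HOX genes over 12 libraries in CPM per kb of canonical transcript (log colour scale), by cluster (rows) and paralog number (columns). Grey squares are not shown, are genes without a row (HOXB1, HOXC12 and HOXD12) or have no gene. The brightest squares are HOXD13 at 44.8, HOXB9 at 33.6 and HOXA5 at 31.8, and the darkest is HOXD1 at 0.318.

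Neighbouring genes of 1 cluster differed widely. In HOXA, HOXA5 at 31.8 CPM per kb lay between HOXA4 at 1.62 and HOXA6 at 6.42, and HOXA7 beyond them was at 0.841. In HOXB, the step from HOXB8 to HOXB9 was from 4.92 to 33.6 CPM per kb. In HOXC, HOXC9 led at 14.7 CPM per kb and HOXC8 beside it was at 1.31. In HOXD, levels stepped up from HOXD9 at 4.34 through HOXD10 at 12.5 and HOXD11 at 24.7 to HOXD13. HOXD10 and HOXD11 share 452 exonic bases on the same strand in GENCODE, so reads there could be assigned to either. In all, 18 members share exonic bases with another gene on the same strand and 28 with a gene on the opposite strand. The library kit keeps strand, but the strand setting of the counting is not given in the sources used here, so reads of a gene and its antisense partner may not have been separated.

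Calls among the HOX members were read beside the shares over all genes, and the members with calls described here lay in HOXA. Tests used edgeR's quasi-likelihood fit on all genes, and a gene was called at a Benjamini-Hochberg adjusted p under 0.05 over 14263 genes tested. In Y641F against WT, 0 of 45 members were called in either direction, where 5.59% of all genes were called lower and 2.09% higher. In A677G against WT, 0 members were called lower and 1, HOXA10, higher, where 6.48% of all genes were lower and 2.07% higher. In the LOF line against WT, 0 members were called, where 0.161% of all genes were lower and 0.140% higher. In Y641F against A677G, 0 members were called, where 0.0140% of all genes were lower and 0.0701% higher. There and in the LOF line against WT, 0 of 45 lies near the share over all genes. So does the 1 of 45 called higher in A677G against WT. In the GOF mean against the LOF line, 1 member was lower and 4, HOXA5, HOXA10, HOXA13 and HOXA11-AS, were higher, where 8.75% of all genes were lower and 3.81% higher. In the last comparison, 4 of 45 members stood against 544 of 14263 genes in the higher direction and 1 of 45 against 1248 of 14263 in the lower. The 4 higher calls became 2 without Y641F replicate 2, A677G replicate 2 or LOF replicate 1, and 1 (HOXA13) without LOF replicate 3, and the 1 lower call became 0 without LOF replicate 1 or LOF replicate 3.

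The counts of 0 were also read at an unadjusted p. In Y641F against WT, 5 members lay under an unadjusted p of 0.05, where 19.2% of all genes did, in A677G 7 where 20.4% did, in the LOF line 4 where 8.30% did, in Y641F against A677G 5 where 6.91% did, and in the GOF mean against LOF 9 where 23.8% did. The edgeR exact test and DESeq2 also called 0 members in Y641F and in the LOF line against WT, and both called 1, HOXA5, lower in Y641F against A677G, while limma voom called 1, HOXA13, higher in Y641F against WT and 0 in the other comparisons whose count was 0. The replicates of the compared lines did not overlap for 6 members in Y641F against WT, where 20.9% of all genes did not. They did not overlap for 8 members in A677G against WT, where 27.2% of genes did not, for 3 in the LOF line against WT, where 15.0% did not, for 8 in Y641F against A677G, where 10.2% did not, and for 4 in the GOF lines against LOF, where 13.9% did not.

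The precision behind these counts depended on level. For the 19 members with a mean of at least 10 CPM, the 95% interval of the log2 fold change stayed within ±0.5 for all 19 in each of the 5 comparisons. For the 26 members under 10 CPM it did so for 13 in Y641F, 12 in A677G and 16 in the LOF line against WT, for 11 in Y641F against A677G and for 17 in the GOF mean against LOF. Their intervals reached as far as -1.45 and 1.07, both for HOXA-AS2. HOXD1, with 10 to 44 counts per library, had the lowest counts.

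**Figure D2:**
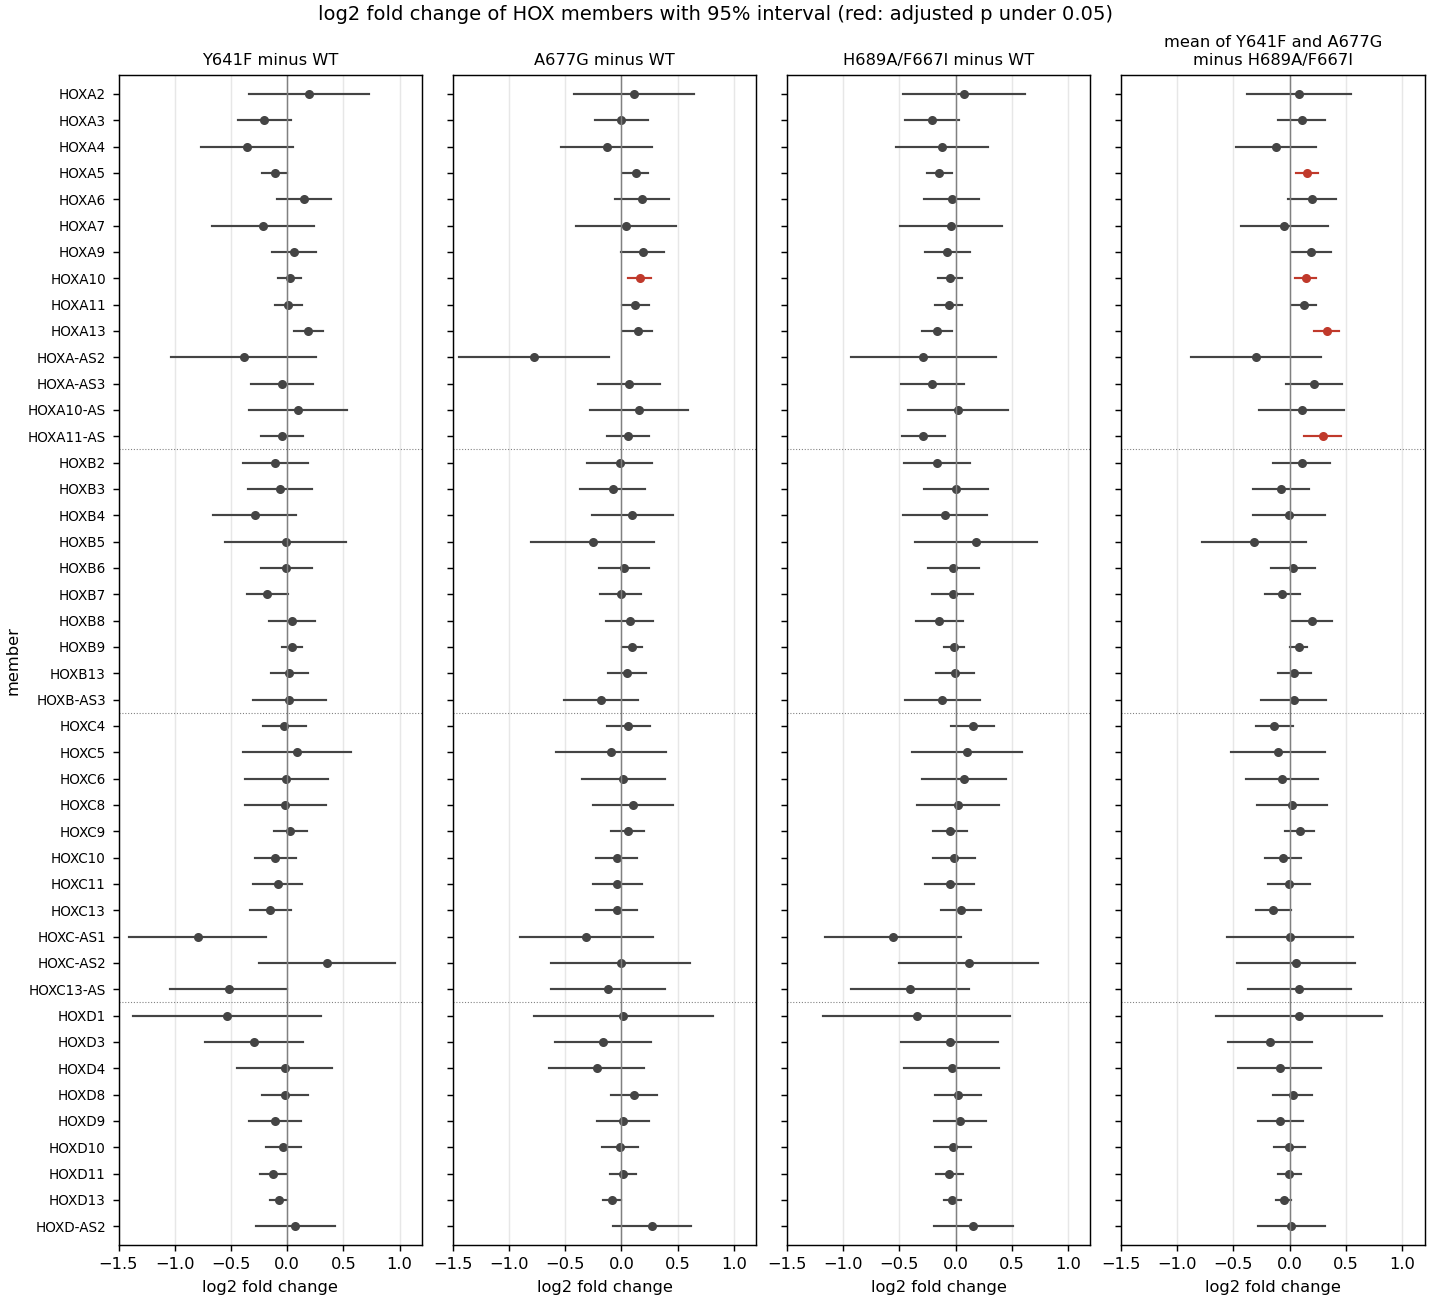
log2 fold change (point) and 95% interval (line) of 44 members in 4 comparisons, in paralog order within each cluster, with antisense RNAs last and dotted lines between clusters. Red marks HOXA5, HOXA10, HOXA13 and HOXA11-AS in the GOF mean against the LOF line and HOXA10 in A677G against WT, and the widest intervals belong to weak members such as HOXD1 and HOXA-AS2.

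The member with the clearest difference was HOXA13, which sits at the end of the HOXA cluster and patterns the distal limb and the urogenital tract. HOXA13 (ENSG00000106031.9, chr7:27193503-27200091, minus strand) was at 31.9, 34.8 and 36.5 CPM in EZH2 WT, 37.1, 38.6 and 41.7 in Y641F, 37.5, 38.6 and 38.0 in A677G, and 28.0, 30.3 and 34.1 in the LOF line. The 6 GOF libraries all lay above the 3 WT and the 3 LOF libraries, while WT and LOF libraries overlapped. The GOF mean exceeded the LOF line by 0.33 on the log2 scale (SE 0.0565, 95% interval 0.21 to 0.44, edgeR adjusted p = 5.21e-05), and the call held in 24 of 24 alternatives of test, scaling, filter and libraries, with differences of 0.27 to 0.41. It was lost where a log2 change of 1 or more was also required. Against WT the differences were 0.19 in Y641F (adjusted p = 0.067), 0.14 in A677G (adjusted p = 0.179) and -0.16 in the LOF line (adjusted p = 0.446), none of them called by edgeR. HOXA13 passed the threshold in Y641F against WT without 1 of 3 libraries, with 0.23 (adjusted p = 0.0427) without WT replicate 3, 0.22 (adjusted p = 0.0292) without Y641F replicate 1 and 0.19 (adjusted p = 0.0490) without LOF replicate 3.

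HOXA10, a posterior gene used in the uterus, the limb and the hindlimb-level skeleton, was the only member called against WT. That 1 of 45 lies near the 2.07% of all genes called higher in A677G. HOXA10 (ENSG00000253293.6, chr7:27170605-27180261, minus strand) was at 53.5, 60.1 and 57.5 CPM in EZH2 WT, 54.5, 61.0 and 58.4 in Y641F, 63.3, 64.2 and 64.0 in A677G, and 58.2, 55.4 and 51.6 in the LOF line. The 3 A677G libraries lay above all 9 others. HOXA10 rose in A677G by 0.16 on the log2 scale (SE 0.0517, 95% interval 0.06 to 0.27, edgeR adjusted p = 0.0422), a fold of 1.12. In the GOF mean against LOF the difference was 0.14 (SE 0.0453, adjusted p = 0.0311), with Y641F at 0.0218 against WT (adjusted p = 0.883). Both calls depend on single libraries. The call against WT was lost without WT replicate 1 (0.12, adjusted p = 0.286), WT replicate 3 (0.17, adjusted p = 0.0803), A677G replicate 1 (0.17, adjusted p = 0.0972), A677G replicate 2 (0.16, adjusted p = 0.120), A677G replicate 3 (0.16, adjusted p = 0.116) and LOF replicate 2 (0.16, adjusted p = 0.0562). It was also lost with library totals (adjusted p = 0.0590) and upper-quartile factors (adjusted p = 0.0837) in place of TMM. The call against LOF was lost without Y641F replicate 2 (0.13, adjusted p = 0.0613), A677G replicate 2 (0.14, adjusted p = 0.0549), LOF replicate 2 (0.15, adjusted p = 0.0833) and LOF replicate 3 (0.10, adjusted p = 0.244). With upper-quartile factors it was lost too (0.12, adjusted p = 0.0644).

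HOXA11 and HOXA9, which flank HOXA10, were not called. HOXA11, which with its paralogs is needed for the metanephric kidney, was at 42.3, 40.7 and 44.02 CPM in EZH2 WT, 39.2, 46.6 and 42.2 in Y641F, 49.7, 43.2 and 45.5 in A677G, and 41.4, 39.1 and 41.2 in the LOF line. The A677G libraries overlapped those of WT, and the difference was 0.12 (adjusted p = 0.222). HOXA9 was at a mean of 12.7 ± 0.86 CPM (SD, n = 3) in EZH2 WT and 14.5 ± 0.64 in A677G, a difference of 0.19 (adjusted p = 0.265). The 4 HOXA genes of groups 9 to 13 were all above 0 in A677G against WT, between 0.12 and 0.19, and in the GOF mean against LOF, between 0.13 and 0.33, where 2 of the 4 were called. In Y641F against WT the same genes lay between 0.00898 and 0.19. Over all 14263 genes, 7374 were above 0 in A677G against WT and 7363 in the GOF mean against LOF.

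HOXA11-AS, an RNA transcribed from the opposite strand of HOXA11 (ENSG00000240990.10, chr7:27184507-27189298, plus strand), stood apart in the LOF line. It was at 12.6, 13.8 and 13.7 CPM in EZH2 WT, 14.3, 13.6 and 11.1 in Y641F, 14.7, 13.3 and 13.7 in A677G, and 10.8, 11.4 and 10.7 in the LOF line. The LOF libraries lay below those of WT and A677G and overlapped those of Y641F through its replicate 3. The GOF mean exceeded the LOF line by 0.29 (SE 0.0822, 95% interval 0.13 to 0.46, edgeR adjusted p = 0.0123). In the LOF line against WT the difference was -0.29 (adjusted p = 0.305), which was not called. Without LOF replicate 1 the difference of the GOF mean was 0.28 (adjusted p = 0.0636) and without LOF replicate 3 it was 0.28 (adjusted p = 0.0588). The ratio of HOXA11-AS to HOXA11 CPM was 0.316 ± 0.0204 (SD, n = 3) in EZH2 WT, 0.306 ± 0.0519 in Y641F, 0.302 ± 0.00601 in A677G and 0.271 ± 0.0170 in the LOF line, and LOF replicate 2 at 0.290 lay within the range of Y641F. HOXA11 and HOXA11-AS overlap by 726 exonic bases of HOXA11.

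HOXA5 lay on opposite sides of WT in A677G and in the LOF line. HOXA5 (ENSG00000106004.5, chr7:27141052-27143681, minus strand) was at 54.0, 53.5 and 54.9 CPM in EZH2 WT, 44.5, 53.6 and 52.1 in Y641F, 56.9, 60.0 and 60.7 in A677G, and 46.7, 50.4 and 49.8 in the LOF line. All A677G libraries lay above, and all LOF libraries below, those of WT, by 0.13 (adjusted p = 0.158) and -0.14 (adjusted p = 0.416), neither of them called. The GOF mean exceeded LOF by 0.15 (SE 0.0482, 95% interval 0.05 to 0.25, edgeR adjusted p = 0.0299). The 2 GOF lines did not overlap, and Y641F was below A677G by -0.24 (SE 0.0545, adjusted p = 0.0743), which passed the threshold with the edgeR exact test (adjusted p = 0.0181), with DESeq2 (adjusted p = 0.0485), and in fits without Y641F replicate 2 (-0.29, adjusted p = 0.0131) or Y641F replicate 3 (-0.27, adjusted p = 0.0452). The call against LOF was lost without Y641F replicate 2 (0.13, adjusted p = 0.0667), Y641F replicate 3 (0.14, adjusted p = 0.0622), A677G replicate 2 (0.15, adjusted p = 0.0586), A677G replicate 3 (0.15, adjusted p = 0.0591), LOF replicate 1 (0.12, adjusted p = 0.208) and LOF replicate 3 (0.17, adjusted p = 0.0569). With upper-quartile factors in place of TMM it was lost too (0.13, adjusted p = 0.0553).

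**Figure D3:**
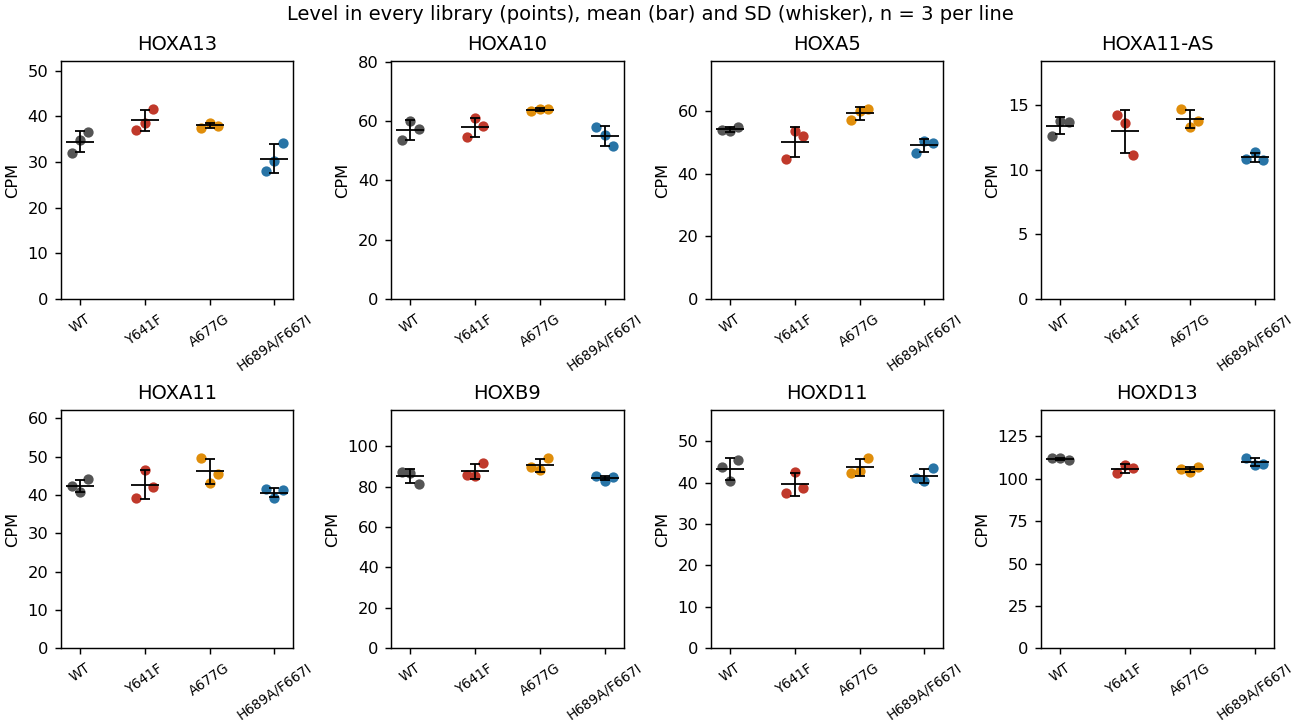
CPM of 8 members in every library (points) with the mean (bar) and SD (whisker) of each line, n = 3, on axes that start at 0. The 6 GOF libraries of HOXA13 lie above the LOF and WT libraries, the 3 A677G libraries of HOXA10 lie above all others, and the differences are small beside the levels.

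The upstream sequences of 3 members are shown because HOXA13 had the clearest difference, HOXA10 was the member called against WT and HOXD13 was the most abundant. CpG dinucleotides are in capitals, since CpG-rich stretches are where PRC2 is known to settle. Each is the 250 bases before the RefSeq start on GRCh38.p14, 5′ to 3′ on the gene's strand, and none overlaps an exon of GENCODE. HOXA10 has a further RefSeq start whose window overlaps an exon and is not shown.
HOXA13, chr7:27200092-27200341, minus strand: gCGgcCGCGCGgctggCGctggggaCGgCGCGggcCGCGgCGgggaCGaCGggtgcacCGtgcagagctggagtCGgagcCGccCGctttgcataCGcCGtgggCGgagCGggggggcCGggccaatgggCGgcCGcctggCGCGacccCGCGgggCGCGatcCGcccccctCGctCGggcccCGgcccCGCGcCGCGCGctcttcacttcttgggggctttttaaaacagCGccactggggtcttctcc
HOXA10, chr7:27174321-27174570, minus strand: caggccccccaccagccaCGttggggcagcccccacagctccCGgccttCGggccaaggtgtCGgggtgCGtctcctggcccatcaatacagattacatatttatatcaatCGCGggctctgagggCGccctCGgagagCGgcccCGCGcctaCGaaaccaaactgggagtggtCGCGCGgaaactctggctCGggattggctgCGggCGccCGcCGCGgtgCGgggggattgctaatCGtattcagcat
HOXD13, chr2:176092471-176092720, plus strand: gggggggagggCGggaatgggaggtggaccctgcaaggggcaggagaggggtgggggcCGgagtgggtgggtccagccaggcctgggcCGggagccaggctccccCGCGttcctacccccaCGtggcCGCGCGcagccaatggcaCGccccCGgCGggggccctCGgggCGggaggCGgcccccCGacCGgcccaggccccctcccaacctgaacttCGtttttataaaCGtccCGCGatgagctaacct

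The HOXA13 window held 40 CpG, and 2.16% of the 35116 RefSeq windows of the same length held at least as many. The HOXA10 window held 24, a count reached by 23.7% of all windows, and the HOXD13 window held 21, reached by 30.2%. Over the 30 windows of the 23 members found in the table the median was 16.5 CpG, against 11 over all windows. Some members had several windows, HOXA3 the most, HOXC4 and HOXC5 had the same window, and no coding HOXB gene had any. The letters TATAAA, searched on both strands, were in the HOXA10 and HOXD13 windows and not in that of HOXA13, in 5 of the 30 member windows and in 10.7% of all windows. These counts describe the letters in the windows and not the binding of a factor. The window of HOXA11-AS, not shown because it overlaps exons, held 9 CpG, a count reached by 54.1% of all windows. HOXA5 is not among the windows.

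HOXA members with lower levels were not called in any of the 5 comparisons. HOXA2, HOXA3, HOXA4, HOXA6 and HOXA7 had means of 1.51 to 7.15 CPM. Of the HOXA antisense RNAs, HOXA-AS2 at a mean of 0.854 CPM had the widest difference, -0.78 in A677G against WT (SE 0.329, adjusted p = 0.157), on 23 to 52 counts per library. HOXA-AS3 was at a mean of 5.08 CPM and HOXA10-AS at 2.01. HOXA10-AS ran at 0.0337 ± 0.00308 (SD, n = 3) of HOXA10 in EZH2 WT and at 0.0334 ± 0.00579 in A677G, where HOXA10 was called.

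No member of HOXB was called in any of the 5 comparisons. HOXB9, its most abundant gene, was at 87.4, 86.8 and 81.1 CPM in EZH2 WT, 85.8, 85.3 and 91.9 in Y641F, 89.8, 88.1 and 94.4 in A677G, and 85.2, 83.1 and 85.0 in the LOF line. The A677G libraries lay above those of WT by 0.09 (95% interval 0.00303 to 0.18, edgeR adjusted p = 0.224), and all GOF libraries lay above those of LOF. HOXB13, a posterior gene known from the prostate, was at 16.4, 17.6 and 16.5 CPM in EZH2 WT, 18.9, 17.1 and 15.2 in Y641F, 18.1, 17.1 and 16.98 in A677G, and 18.1, 15.4 and 16.9 in the LOF line, and its lines all overlapped. HOXB7 was at 14.8, 12.6 and 13.4 CPM in EZH2 WT, 12.03, 12.03 and 11.96 in Y641F, 12.6, 13 and 15.03 in A677G, and 12.9, 14.2 and 12.9 in the LOF line. Its Y641F libraries lay below all others, by -0.18 against WT (SE 0.0902, adjusted p = 0.284).

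No member of HOXC was called in any of the 5 comparisons. HOXC9, its most abundant gene, was at 19.6, 22.6 and 22.2 CPM in EZH2 WT, 21.2, 23.1 and 21.5 in Y641F, 22.7, 21.1 and 23.3 in A677G, and 19.3, 21.2 and 21.9 in the LOF line, with all lines overlapping. HOXC13, known for its role in hair and nail keratins, was at 14.8, 15.2 and 16.2 CPM in EZH2 WT, 14.7, 12.9 and 13.97 in Y641F, 14.7, 13.8 and 16.4 in A677G, and 15.4, 18.1 and 14.3 in the LOF line. Its Y641F libraries lay just below those of WT, by -0.15 (adjusted p = 0.385). HOXC4 was at 13.4, 11.3 and 11.1 CPM in EZH2 WT, 12.7, 12.3 and 10.3 in Y641F, 12.7, 12.6 and 12.2 in A677G, and 13.4, 13.3 and 13.3 in the LOF line, where all GOF libraries lay below LOF by -0.14 for the mean (adjusted p = 0.323). The antisense RNA HOXC-AS1, at a mean of 0.973 CPM and 21 to 61 counts per library, had the lowest value of any member against WT, -0.80 in Y641F (95% interval -1.41 to -0.18, adjusted p = 0.108).

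No member of HOXD was called in any of the 5 comparisons. HOXD13 was at 112, 112 and 111 CPM in EZH2 WT, 104, 108 and 106 in Y641F, 106, 104 and 107 in A677G, and 112, 108 and 109 in the LOF line. The libraries of both GOF lines lay below those of WT, by -0.08 in Y641F (95% interval -0.15 to 0.00116, adjusted p = 0.270) and -0.08 in A677G (95% interval -0.16 to -0.00545, adjusted p = 0.203). HOXD11, a limb and kidney patterning gene, was at 43.8, 40.3 and 45.5 CPM in EZH2 WT, 37.5, 42.5 and 38.6 in Y641F, 42.3, 42.8 and 46.0 in A677G, and 41.0, 40.3 and 43.5 in the LOF line. Its Y641F libraries overlapped those of WT, and the difference was -0.13 (adjusted p = 0.202). HOXD10 was at 21.8, 22.5 and 23.4 CPM in EZH2 WT, 21.7, 21.4 and 23.0 in Y641F, 20.2, 21.5 and 25.6 in A677G, and 20.7, 21.9 and 24.2 in the LOF line, with all lines overlapping. All 8 coding HOXD genes were below 0 in Y641F against WT, between -0.54 and -0.0205, against 4 of 8 in A677G. Over all 14263 genes, 6984 were below 0 in Y641F and 6889 in A677G.

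Summed over a cluster, the lines separated in different ways. The sum of the 15 HOXA members was 251, 257 and 260 CPM in EZH2 WT, 240.4, 268 and 258 in Y641F, 279, 278 and 279 in A677G, and 238, 240.1 and 243 in the LOF line. A677G lay above all other libraries and the LOF line below WT and A677G, while Y641F spanned the range of WT. The HOXB sum was 163, 161 and 152 CPM in EZH2 WT, 159, 157 and 161 in Y641F, 160.3, 162 and 172 in A677G, and 154, 154 and 160 in the LOF line, and each mutant line overlapped WT. The HOXC sum was 79.7, 82.5 and 81.2 CPM in EZH2 WT, 76.03, 79.1 and 77.9 in Y641F, 80.9, 78.7 and 84.6 in A677G, and 79.6, 83.5 and 81.2 in the LOF line. The HOXD sum was 203, 205 and 208 CPM in EZH2 WT, 188, 200.1 and 194 in Y641F, 195, 196 and 210.2 in A677G, and 202, 199 and 204 in the LOF line. In both HOXC and HOXD the Y641F libraries lay below all WT libraries, and the other lines overlapped WT. No p is given for these sums, which the strongest genes dominate.

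The median log2 fold change of the 45 members was -0.03 in Y641F against WT, 0.02 in A677G against WT, -0.04 in the LOF line against WT, -0.09 in Y641F against A677G and 0.02 in the GOF mean against LOF. Over all genes these medians were 0.00251, 0.00454, 0.00237, 1.28e-05 and 0.00387. With upper-quartile factors the A677G median was -0.00105, beside -0.0152 over all genes. In the GOF mean against LOF the median was -0.0161 without A677G replicate 3 and -0.00913 without LOF replicate 1. Of the 45 members, 30 were below 0 in Y641F, 18 in A677G and 31 in the LOF line against WT. Over all 14263 genes, 6984, 6889 and 6962 were. In Y641F against A677G, 35 were below 0, where 7131 of 14263 genes were, and 27 without A677G replicate 3.

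**Figure D4:**
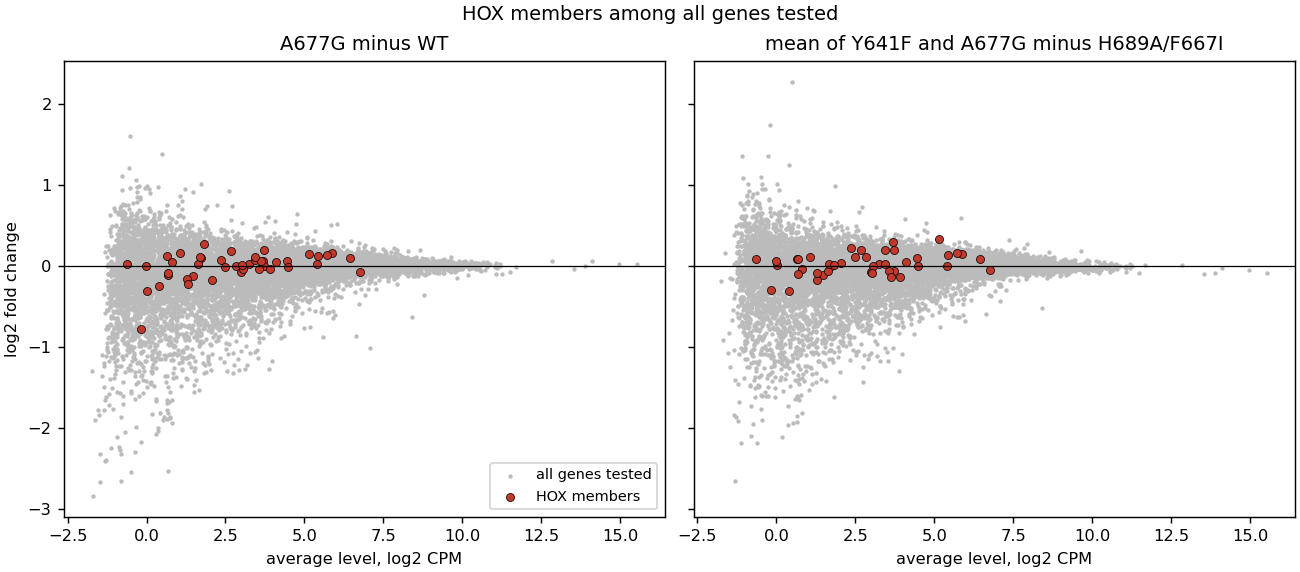
log2 fold change against average level in log2 CPM for 14263 genes tested (grey) and 44 HOX members (red), for A677G against WT and for the GOF mean against the LOF line. The members lie between -0.78 and 0.27 in the first and between -0.32 and 0.33 in the second, within a cloud of genes that runs from -2.84 to 1.60 and from -2.66 to 2.27.

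Other transcripts of the clusters were described from lists. Of 14 further noncoding RNAs of the clusters, 6 had a row and 4 were tested. HAGLR, a noncoding RNA that shares exonic bases with HOXD1 and HOXD3 on the opposite strand, was the only one called. It was at 7.51 ± 0.968 CPM (SD, n = 3) in EZH2 WT, 4.69 ± 0.530 in Y641F, 5.16 ± 0.814 in A677G and 6.10 ± 0.361 in the LOF line. HAGLR fell by 0.68 on the log2 scale in Y641F (SE 0.136, edgeR adjusted p = 0.000815) and by 0.54 in A677G (SE 0.135, adjusted p = 0.00644). Over all genes, 5.59% were called lower in Y641F and 6.48% in A677G. HOXD1 beside HAGLR was at a mean of 0.600 CPM and was not called. The 4 coding genes of HOXD groups 1 to 8 lay between -0.54 and -0.02 in Y641F, none of them called. In A677G they lay between -0.22 and 0.113, with 2 below 0 and 2 above, and none was called. HOTAIR at 6.11 to 6.58 CPM, HOTAIRM1 at 24.7 to 26.0 and HOTTIP at 0.486 to 0.741, as line means, were not called. None of EVX1, EVX1-AS, EVX2, PRAC1 and PRAC2, which lie at the posterior ends of the clusters, had a row.

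Genes flanking the clusters were read against the same shares over all genes. Of the 9 tested around HOXA, NFE2L3, a bZIP transcription factor gene, was called lower in Y641F by -0.33 (SE 0.0525, edgeR adjusted p = 3.23e-05), in A677G by -0.38 (SE 0.0526, adjusted p = 2.22e-06) and in the GOF mean against LOF by -0.37 (SE 0.0451, adjusted p = 1.29e-07). In these comparisons 5.59%, 6.48% and 8.75% of all genes were called lower. Around HOXB, 0 of 9 flanking genes were called in the 5 comparisons, with 1 under an unadjusted p of 0.05 in Y641F against WT, and around HOXC 0 of 11, with 1 in Y641F and 1 in A677G against WT and 1 in the GOF mean against LOF. Around HOXD, ATF2 was the 1 of 8 called, higher in the GOF mean than in LOF by 0.21 (SE 0.0376, adjusted p = 0.00013), where 3.81% of all genes were called higher. Of the 8, 4 lay under an unadjusted p of 0.05 in that comparison, where 23.8% of all genes did, 3 in Y641F against WT, where 19.2% did, 1 in A677G, where 20.4% did, and 2 in the LOF line, where 8.30% did.

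Partners and upstream factors were read in the same fits. TALE proteins of the PBX, MEIS and PKNOX families bind DNA together with HOX proteins, and 12 of their list were tested. MEIS3 was called lower in Y641F by -0.50 (SE 0.116, edgeR adjusted p = 0.00399), in A677G by -0.56 (SE 0.117, adjusted p = 0.000956) and in the GOF mean against LOF by -0.61 (SE 0.0989, adjusted p = 2.21e-05). PBXIP1, which binds PBX proteins, was called higher in Y641F by 0.28 (SE 0.0908, adjusted p = 0.0480), and the other 10 were not called. Over all genes, 5.59% were called lower in Y641F, 6.48% in A677G and 8.75% in the GOF mean against LOF. Called higher in Y641F were 2.09%. A list of 15 HOX maintenance genes held CTCF and genes of Trithorax and related complexes. Of these 15, ING5 was called higher in A677G by 0.19 (SE 0.0561, adjusted p = 0.0241), and BRD1 by 0.17 (SE 0.0399, adjusted p = 0.00205) and KMT2B by 0.17 (SE 0.0591, adjusted p = 0.0499) in the GOF mean against LOF. Over all genes, 2.07% were called higher in A677G and 3.81% in the GOF mean against LOF. Retinoic acid is a classical inducer of HOX genes from the 3′ ends of the clusters. Of 20 genes of its supply and reception and of the CDX factors, 15 were tested, and of these 0 were higher and 6 were lower in the GOF mean against LOF, where 8.75% of all genes were lower. They were RXRG by -1.86 (SE 0.217, adjusted p = 6.25e-08), ALDH1A1 by -1.34 (SE 0.227, adjusted p = 4.10e-05), ALDH1A2 by -0.68 (SE 0.0469, adjusted p = 2.17e-13), ALDH1A3 by -0.73 (SE 0.129, adjusted p = 7.71e-05), CRABP2 by -0.48 (SE 0.0846, adjusted p = 6.94e-05) and DHRS3 by -0.45 (SE 0.0919, adjusted p = 0.000523). Against WT, 2 of the 15 were lower in Y641F, where 5.59% of all genes were, and 5 in A677G, where 6.48% were. Those called in Y641F were RXRG (-1.90) and ALDH1A2 (-0.38), while CRABP2 (0.0244) and DHRS3 (0.0477) lay near WT there. DHRS3 was not called in A677G. In the LOF line 0 were called, and 6 lay under an unadjusted p of 0.05, where 8.30% of all genes did. The genes named above for the GOF mean all lay above WT in the LOF line, from 0.0149 for RXRG to 0.62 for ALDH1A1. The list was chosen with earlier results of these data known. Whether these differences bear on HOX levels was not tested.

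**Figure D5:**
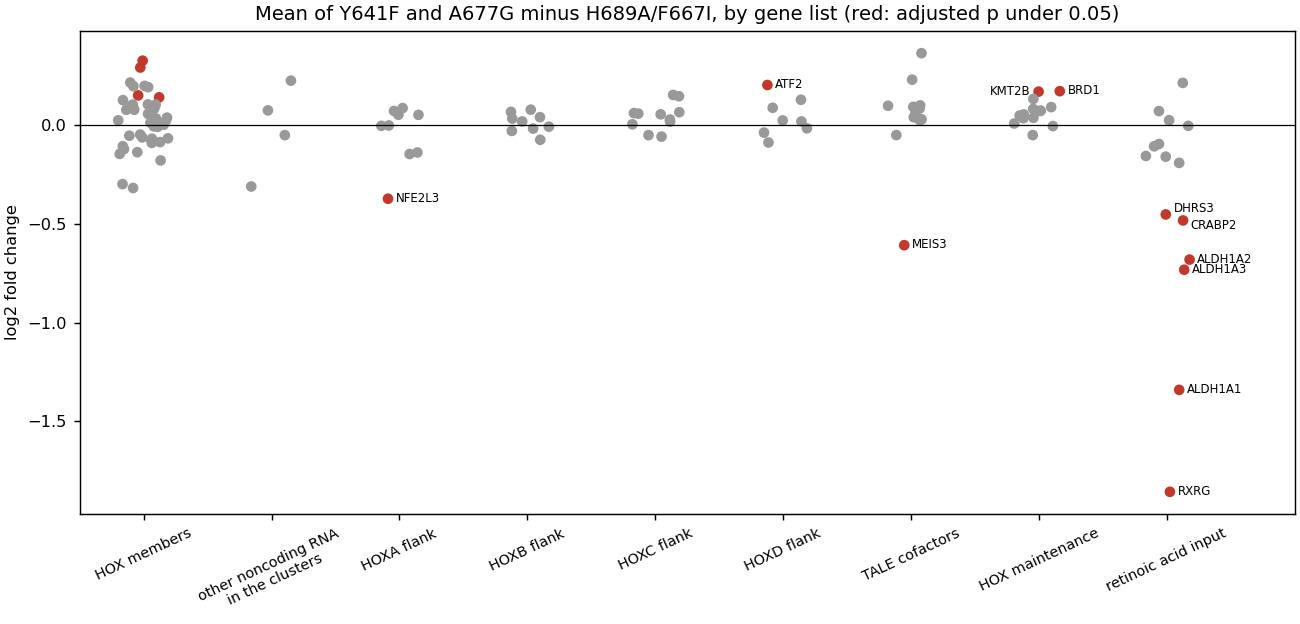
log2 fold change of the GOF mean against the LOF line (vertical axis) for 44 HOX members and each tested gene of 8 lists (columns), red where the edgeR adjusted p was under 0.05. HOX members lie between -0.32 and 0.33, and the lowest point of the retinoic acid list is RXRG at -1.86.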

How the data were processed

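RNA-Seq libraries (TruSeq Stranded mRNA) of 12 samples were analysed. The authors deposited counts per gene symbol, whole numbers without normalization. The submitters' processing notes name Trim Galore 0.6.5, STAR 2.7.9a, Salmon 1.2.0, edgeR 3.16 and GRCh38, and the step to counts per gene and its filter are not given in the sources used here. Samples were grouped by genotype label. The 175 genes at 0 in all replicates of a line were left out, and 14263 were tested with edgeR 4.0.16 (R 4.3.3), TMM factors and the quasi-likelihood test over all samples, with 1 coefficient per line. The edgeR exact test that the study names was an alternative. CPM are TMM-normalized. Of the symbols, 13272 matched GENCODE v44 names, 836 an older symbol and 330 none. Values of 1 member and 1 marker gene are not reported here and enter only counts, medians and sums. Replicate numbers did not pair the samples. Members called in a comparison and the 3 most abundant of each cluster were given with every replicate. Alternatives covered test, normalization, filters, GC content, depth, replicate block and each replicate left out. The length of all exons was added after seeing the data. The code was tested on simulated data. Members and gene lists were chosen with earlier results of these data known.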

Additional observations from a re-analysis of the deposited data

Results flagged for a closer look

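Levels differed between the GOF lines and the LOF line for 4 members reported here, by a test of the difference itself (edgeR's quasi-likelihood test on the GOF mean against LOF, adjusted over all genes, n = 3 per line). The differences on the log2 scale were 0.33 for HOXA13, higher than LOF in 6 of 6 GOF libraries, 0.29 for HOXA11-AS, 0.15 for HOXA5 and 0.14 for HOXA10. In Y641F, HOXA5 lay below EZH2 WT (-0.11) as it did in the LOF line, and HOXA10 was at 0.0218 from WT. The calls of HOXA5, HOXA10 and HOXA11-AS were lost without 6, 4 and 2 of the 12 libraries, each left out alone. Those of HOXA5 and HOXA10 were also lost with upper-quartile factors. HOXA5 lay above EZH2 WT in every A677G library, by 0.13 (edgeR adjusted p = 0.158). It lay below WT in every LOF library, by -0.14 (edgeR adjusted p = 0.416). Neither difference was called. Over all genes, replicates did not overlap for 27.2% in A677G against WT and for 15.0% in the LOF line against WT. That A677G and LOF differ from each other in HOXA5 was not tested.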

How the results depend on the processing

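Of the values of the 5 called members in the 5 comparisons, 578 kept direction and side of the threshold under an alternative, 25 lost the threshold, 13 gained it and 4 changed sign, and the cause of these changes was not tested. HOXA10 changed sign in Y641F against WT without WT replicate 1 (-0.0228) or Y641F replicate 2 (-0.0137), with a range of -0.0228 to 0.0641 over all alternatives. HOXA11-AS did so in Y641F against WT without Y641F replicate 3 (0.0572, range -0.119 to 0.0572). HOXA13 did so in Y641F against A677G without Y641F replicate 3 (-0.00622, range -0.00622 to 0.0791). The count of members higher in Y641F against WT was 1 (HOXA13) with the replicate block, with the GC trend removed with replicate block and with limma voom, and 0 to 1 without single replicates. The count higher in A677G against WT was 0 with upper-quartile factors, library totals, at least 10 counts in every sample or a log2 change of 1 or more also required, and 0 to 1 without single replicates. The count lower in Y641F against A677G was 1 (HOXA5) with the exact test, DESeq2, genes at 0 kept, the replicate block and the GC trend removed with replicate block, and 0 to 1 without single replicates. In the GOF mean against LOF, the count lower was 0 with that size also required and 0 to 1 without single replicates, and the count higher was 2 with upper-quartile factors, 0 with that size also required and 1 to 5 without single replicates. The HOXA sum in A677G moved from 278.7 to 277.8 CPM with library totals and 276.5 with upper-quartile factors. The exact test gives no value for the GOF mean against LOF. Over all genes, genes at 0 kept raised the calls in Y641F against A677G from 2 lower and 10 higher to 15 and 163, and in LOF against WT from 23 lower and 20 higher to 139 and 30. Same-numbered replicates correlated between -0.0557 and 0.0501 in 18 pairs, so numbers are names only. Depth limits members under 10 CPM, whose median SE was 0.193 in Y641F against WT, against 0.0827 for the others.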
